A study of Mus musculus with 12 samples.

Results

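Mouse livers collected around dawn were set against livers collected around dusk for their microRNA (miRNA) levels. The dawn set holds the pools taken at zeitgeber time (ZT, hours after a reference lights-on) 22, 26, 46 and 50, which lie 2 h before or 2 h after lights-on. The dusk set holds those of ZT34, ZT38, ZT58 and ZT62, 2 h before or after lights-off. These 8 arrays, 4 on each side, were chosen by their labelled times from the 12 arrays of the series, which ran from ZT18 to ZT62 every 4 h. All animals were adult mice kept in 12 h of light and 12 h of darkness and fed and watered ad libitum, and neither genotype nor drug separated the groups. Each array was hybridised with liver RNA pooled from 2 mice, so the 4 arrays of a side are 2 clock times on each of 2 days, and p-values measure the spread between pools rather than between animals. Each side holds 2 pools taken in the light and 2 taken in the dark, and 2 of each day.

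A miRNA is a short RNA that guides the Argonaute protein to messenger RNAs, mainly by pairing of its seed, bases 2 to 8, and lowers their translation and stability. In liver, the transcription factors CLOCK and BMAL1 drive their own repressors, the PER and CRY proteins, in a daily loop, and many liver transcripts peak near one of the turning points of the light cycle. Several liver miRNAs are known to target messages of this loop or of lipid and glucose metabolism. A mature miRNA is usually long-lived, so that rhythmic transcription of its gene need not appear in its level.

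The following mature sequences belong to the miRNAs on which the comparisons below turn. They are given from 5′ to 3′ with the seed in capitals, from RefSeq (GRCm38.p6). miR-500 is shown because it had the smallest p between dawn and dusk, and miR-144 because it varied with its genomic neighbour miR-451. The next 2 share the seed AAAGUGC of the miR-17 family, 4 share AGCAGCA of the miR-15/16 family, 4 share GAGGUAG of the let-7 family, and the last 2 are single members.
miR-500: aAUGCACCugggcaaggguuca
miR-144: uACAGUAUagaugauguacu
miR-20a: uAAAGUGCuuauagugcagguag
miR-106b: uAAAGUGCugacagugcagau
miR-195: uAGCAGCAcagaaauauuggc
miR-497: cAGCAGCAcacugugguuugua
miR-15b: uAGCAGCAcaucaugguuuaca
miR-16: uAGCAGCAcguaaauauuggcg
let-7d: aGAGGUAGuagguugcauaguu
let-7e: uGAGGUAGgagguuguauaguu
let-7f: uGAGGUAGuagauuguauaguu
let-7g: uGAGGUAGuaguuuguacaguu
miR-21: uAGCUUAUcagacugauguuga
miR-146a: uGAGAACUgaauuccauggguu

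Levels are log2 of the scanner's processed intensity divided on every array by the 75th percentile of those probes that all arrays detected. Values under an intensity of 21.9 were set to that floor, which is 4.45 on the log2 scale. Of 611 mouse entries on the array, 110 were detected on all 8 dawn and dusk arrays, 408 on none, and 93 on 1 to 7 of them. The comparison tested 133 entries, of which 129 are mouse miRNAs, and 109 of the 133 lay above the floor on all 8 arrays. The number of mouse entries detected was 139 ± 6.63 at dawn and 138 ± 9.83 at dusk (SD, n = 4; two-sided exact permutation test, p = 0.886). The array scaling factors ran from 0.904 to 1.08 at dawn and from 0.853 to 1.02 at dusk (exact permutation p = 0.429). Arrays ZT18 to ZT46 lay on one slide and ZT50 to ZT62 on a second, so that dawn was split 3 to 1 and dusk 2 to 2 between slides. With a pool as the unit, the number of arrays limits the precision.

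The markers of liver cells were present. All 8 hepatocyte miRNAs listed (miR-122, miR-192, miR-194, miR-148a, miR-101a, miR-101b, miR-365 and miR-802) were detected on all 8 arrays. The 4 miRNAs of striated muscle, 4 of pancreas and 4 of neurons that were examined were detected on none of them.

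The miRNA profiles of dawn and dusk livers differed little, and no miRNA was called different between them. By limma with Benjamini-Hochberg adjustment, 0 of 133 entries (percent called 0) had an adjusted p under 0.05, and the smallest was 0.822. Before adjustment, 4 entries (3.01%) fell under 0.05, of which 3 were higher at dawn (2.26%) and 1 lower (0.752%). An exact permutation test per entry called 0 after adjustment and 3 before it, each at 0.0286, the smallest p that 4 against 4 allows. After adjustment over 133 entries that test could call an entry only if a large share of entries reached this minimum. Its adjusted count of 0 therefore adds nothing to the limma result. The median dawn minus dusk difference over all tested entries was 0.03 on the log2 scale, and 93 of 133 (69.9%) lay above 0. That lean rested on the scaling. It was 42 above and 90 below without scaling, 52 and 75 with all probes in the percentile, 59 and 71 with quantile normalisation, and 27 and 106 after normexp background correction. Counts above and below 0 in the lists that follow were taken with the percentile scaling and share that dependence, since differences near 0 changed sign with it.

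Arrays of the same side correlated about as closely as arrays of opposite sides. Log2 levels correlated at a mean r of 0.997 over the 12 pairs within dawn or within dusk and at 0.996 over the 16 pairs between them, across entries, which are not independent replicates. These values rest mainly on the spread of levels between entries and say little about a dawn to dusk difference. For the deviations of each entry from its own mean over the 8 arrays, the mean r was -0.0952 within and -0.156 between. Subtracting that mean by itself pushes r below 0, so the negative sign is not a result.

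With the percentile scaling, the data bound how large a difference could have been missed. Among the 106 mouse entries above the floor on all 8 arrays, the observed difference was within 1.1-fold for 95 and within 1.2-fold for 101. The 95% confidence interval of the fold lay inside 1.2-fold in either direction for 66 entries, inside 1.5-fold for 100, and inside 2-fold for all 106. The 6 whose interval reached past 1.5-fold were miR-143, miR-144, miR-1895, miR-199b*, miR-451 and miR-712. For the 62 entries with a mean intensity over 100, the interval lay inside 1.2-fold for 49. After normexp the median difference over all tested entries was -0.42, and these bounds do not cover that setting.

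**Figure D1:**
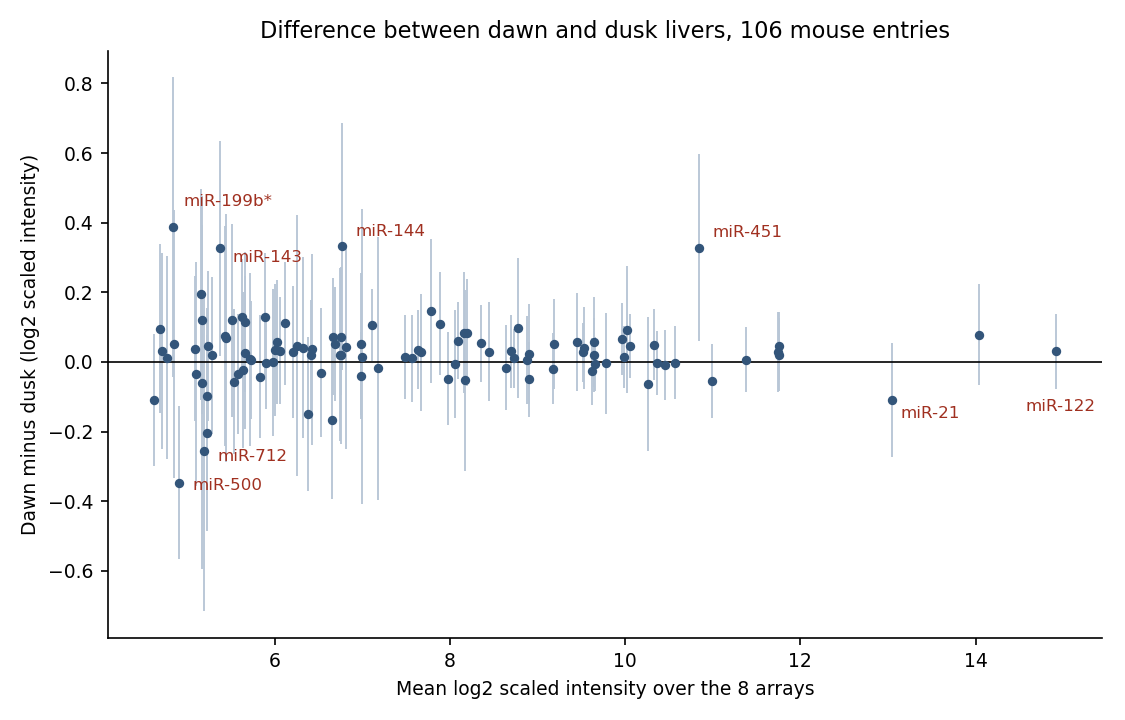
Dawn minus dusk difference (log2 scaled intensity) against the mean level over the 8 arrays for 106 mouse entries above the floor on all 8. Bars are 95% confidence intervals of single entries, not adjusted for their number; intervals narrow toward brighter entries, and miR-500, at -0.35, and miR-451, at 0.33, stand off the zero line.

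Of the hepatocyte miRNAs, 7 of 8 lay within 1.1-fold between dawn and dusk, and miR-802 did not. miR-122, the liver's characteristic miRNA, controls cholesterol and fat metabolism, and its primary transcript is known to cycle in mouse liver. Its log2 level was 14.89, 14.96, 14.99 and 14.91 at ZT22, ZT26, ZT46 and ZT50, and 14.98, 14.86, 14.95 and 14.84 at ZT34, ZT38, ZT58 and ZT62. The 2 sides overlapped throughout, and the dawn level was 1.02-fold that of dusk, with a 95% interval from 0.948 to 1.1 (limma, adjusted p = 0.962). Of the 8 hepatocyte entries, 6 lay above 0 and 2 below, with a median difference of 0.03, the same as over all 133 entries, and 0 were under 0.05 before adjustment. miR-122, miR-192, miR-194 and miR-148a all lay slightly below 0 without scaling. The most variable of them was miR-802, with 6.46, 4.45, 4.51 and 5.06 at dawn and 4.76, 4.54, 4.74 and 4.45 at dusk, and its high value came from ZT22 alone. Its fold was 1.41, with an interval from 0.753 to 2.65.

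The miRNAs listed as clock-related had a median difference close to that of all entries. They were not all chosen as regulators of the clock's own messages. Some, such as miR-122, are also in the hepatocyte list and in the lipid and glucose list below. The list held 35 entries, of which 22 were detected on all 8 arrays, 10 on none, and 23 were tested. Of these, 16 lay above 0 and 7 below, beside 93 of 133 (69.9%) above 0 over all entries. Their median was 0.03. Before adjustment 1, miR-20a, was under 0.05, beside 4 of 133 (3.01%) over all entries. The largest difference in the list was that of miR-181d, 1.45-fold with an interval from 0.690 to 3.03. It was at 5.26, 6.18, 5.88 and 4.45 at dawn and 4.45, 4.53, 6.14 and 4.51 at dusk, with both sides reaching from the floor to over 6. The clustered pair miR-192 and miR-194, able to repress Period genes, differed by 1.02-fold (95% interval 0.943 to 1.11) and 1.03-fold (0.968 to 1.1). miR-29a, which can target Per messages, stood at 0.963-fold (0.895 to 1.04), and all 3 members of the miR-29 family lay slightly below 0, from -0.06 to -0.03. miR-142-3p, a leukocyte miRNA that can target Bmal1, was at 8.27, 8.05, 8.14 and 8.35 at dawn and at 8.24, 8.14, 8.07 and 8.0 at dusk, which overlap. miR-185, which can target Cry1, was at 5.43, 5.30, 4.90 and 5.4 against 5.16, 5.14, 5.08 and 4.87. Its fold was 1.14, with an interval from 0.928 to 1.41, and the dawn array ZT46 lay among the dusk values; without it the log2 difference was 0.32 in place of 0.19.

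The 21 tested of 25 miRNAs of lipid and glucose metabolism had a median difference of 0.04, with 17 above 0 and 4 below. Of all entries, 93 of 133 (69.9%) lay above 0. Before adjustment, miR-143 and miR-451 were under 0.05, beside 4 of 133 (3.01%) over all entries. miR-103 and miR-107, which dampen insulin signalling, were at 1.01-fold (0.930 to 1.1) and 1.02-fold (0.925 to 1.13). miR-378 (1.04-fold, 0.899 to 1.19) and miR-22 (1.03-fold, 0.965 to 1.1) did not differ beyond their spread. miR-21, a miRNA of stress and regeneration responses, was at 12.78, 13.08, 12.99 and 13.11 at dawn and 13.16, 13.02, 13.08 and 13.14 at dusk. The dawn arrays ZT22 and ZT46, both taken in the dark, lay below every dusk array, the other dawn arrays did not, and its fold was 0.927 (0.827 to 1.04). Without ZT22 its log2 difference was -0.04 in place of -0.11.

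miR-500 was the entry with the smallest p and the 1 mouse miRNA above the floor whose dawn values all lay below its dusk values. It measured 4.63, 4.6, 4.84 and 4.89 at dawn and 5.12, 5.0, 5.19 and 5.04 at dusk. Both groups sat close above the floor of 4.45, and the highest dawn array, ZT50, came near the lowest dusk array, ZT38. The means were 4.74 ± 0.15 and 5.09 ± 0.08 (SD, n = 4). Dawn was 0.786-fold dusk, with an interval from 0.675 to 0.916 (limma, unadjusted p = 0.00618, adjusted p = 0.822). The sign was the same on each slide taken alone, at -0.37 on the first and -0.22 on the second.

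Among the 109 entries above the floor, the 2 sides failed to overlap for 3 (2.75%). Besides miR-500, the 1 with lower dawn values (0.917%), they were miR-143 and miR-20a, both higher at dawn (1.83%). miR-20a belongs to the miR-17~92 cluster, a set of growth-promoting miRNAs. It was at 7.14, 7.22, 7.12 and 7.17 at dawn and 7.08, 7.07, 7.05 and 7.03 at dusk. The values of each side were tight and the step between them was small, a fold of 1.08, and after normexp its difference was -0.28. Relative to the median of all entries, which was -0.42 after normexp, miR-20a was at 0.14. Its near relative miR-106b, with the same seed, was at 6.62, 6.64, 6.78 and 6.83 against 6.72, 6.75, 6.54 and 6.65, which overlap. Over the 8 tested of the 11 members of the miR-17~92 list, 5 lay above 0 and 3 below, with a median of 0.04.

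miR-451 and miR-144 are made together in red blood cells, where they support the maturation of erythrocytes. miR-451 was at 10.77, 11.01, 10.92 and 11.33 at dawn and 10.66, 10.82, 10.48 and 10.75 at dusk. The dawn array ZT22 lay below the highest dusk array, ZT38, and ZT50 was the highest of all 8. Dawn was 1.26-fold dusk, with an interval from 1.04 to 1.51 (limma, unadjusted p = 0.0224, adjusted p = 0.947). After normexp correction, where the median of all entries moved to -0.42, the difference was 0.41 and its adjusted p 1.61e-07 by limma, the 1 call in that setting. That fit took the variance of every entry from the intensity trend alone. Its p therefore does not measure the spread of miR-451 itself between pools. Without ZT50 the difference was 0.22 in place of 0.33.

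miR-144 was at 6.68, 6.82, 6.82 and 7.42 at dawn and 6.67, 6.67, 6.38 and 6.69 at dusk. ZT50 was again the highest and ZT58 the lowest, and only ZT22 overlapped with dusk. Its fold was 1.26, with an interval from 0.984 to 1.61. Without ZT50 its difference was 0.17 in place of 0.33, and after normexp it was -0.23, or 0.19 relative to the median of all entries. Both tested members of the red cell list thus lay at 0.33, against 0.03 over all entries, and the log2 summed level of the list ran from 10.85 to 11.42 at dawn and from 10.56 to 10.90 at dusk. The third member, miR-486, was detected on 3 of the 8 arrays. Blood content was not measured, and its part in this difference was not tested. In a pool of whole liver, more cells of a type and more RNA per cell cannot be told apart.

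miR-451 and miR-144 moved together over time. Their genes neighbour each other on chromosome 11 in RefSeq. Over all 12 arrays Pearson's r was 0.964 (permutation p = 1e-05, the smallest that 100000 draws can give) and Spearman's rho was 0.965 (permutation p = 2e-05). Without the 2 arrays farthest from the median, r was 0.942, and over the 8 arrays of the first slide it was 0.958. The second slide holds 4 arrays, too few for a value of its own. The median r over all 5565 pairs of mouse entries was 0.187. This pair was 1 of 4 that were chosen after values had been seen, and its r had an adjusted p of 4e-05. That adjustment covered the 4 pairs alone, and 0.018% of all pairs had an r at least as high. The clustered pair miR-192 and miR-194, also 1 of the 4, had an r of 0.481 (permutation p = 0.11, adjusted p = 0.11) and a rho of 0.308 (permutation p = 0.33), and 20.7% of all pairs had an r at least as high.

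miRNAs of connective tissue and vessel walls varied most on a single array. miR-143, found in smooth muscle and other mesenchymal cells, was at 5.95, 5.35, 5.51 and 5.33 at dawn and 5.21, 5.25, 5.15 and 5.22 at dusk. All dawn arrays were above all dusk arrays, and ZT22 was the highest by a wide margin. The fold was 1.25, with an interval from 1.01 to 1.55. Without ZT22 the log2 difference was 0.19 in place of 0.33, and after normexp it was -0.42. miR-199b* was likewise highest at ZT22, at 5.58, with 4.63, 4.86 and 5.06 on the other dawn arrays and 4.70, 4.81, 4.6 and 4.48 at dusk. Its sides overlapped, and its fold was 1.31 (0.970 to 1.76). Its log2 difference of 0.39 was 0.21 without ZT22, 0.03 with the floor multiplied by 2 and -0.45 after normexp. Relative to the median of all entries after normexp, miR-143 was at -0.004 and miR-199b* at -0.03.

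Of 7 mesenchymal entries 6 were on the array and 4 tested, and these 4 all lay above 0, with a median of 0.22, beside 0.03 over all entries. Of them, miR-143 and miR-199b* were among the 5 entries named for the largest positive differences in this comparison. The median of the list thus rests partly on entries already named as high, and the list adds no separate evidence. The range was wide, from 0.04 for miR-199a-3p to 0.39 for miR-199b*. miR-199a-3p also had its highest value, 7.20, at ZT22. The log2 summed level of the list ran from 7.61 to 8.24 at dawn and from 7.59 to 7.84 at dusk, and miR-145, often made with miR-143, was detected on none of the 8 arrays. How much connective tissue each pool held was not measured, and its part was not tested. A shift of this size was not particular to the mesenchymal list. Of 5 epithelial or bile duct entries, the 2 tested, miR-200a and miR-200b, also lay above 0, with a median of 0.22. On all 8 arrays, 0 of those 5 entries were detected. Over the 12 arrays miR-143 and miR-199b* had an r of 0.878 (permutation p = 0.00069, adjusted p = 0.00092; rho 0.783). It fell to 0.651 without the 2 arrays farthest from the median and was 0.940 on the first slide. This pair too was chosen after values had been seen, so its p does not allow for that choice. Of all pairs of mouse entries, 0.431% had an r at least as high.

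Endothelial and leukocyte miRNAs had medians close to 0. The endothelial entries miR-126-3p and miR-126-5p were at 0.998-fold (0.937 to 1.06) and 1.01-fold (0.908 to 1.13). Of 6 leukocyte entries, 4 were tested. Of these, 3 lay above 0 and 1 below, with a median of 0.05. miR-223, of neutrophils and macrophages, was at 6.86, 6.61, 6.79 and 6.77 at dawn and 7.05, 6.72, 6.63 and 6.55 at dusk, fully overlapping. miR-150 and miR-155, of lymphocytes, were detected on none of the 8 arrays.

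**Figure D2:**
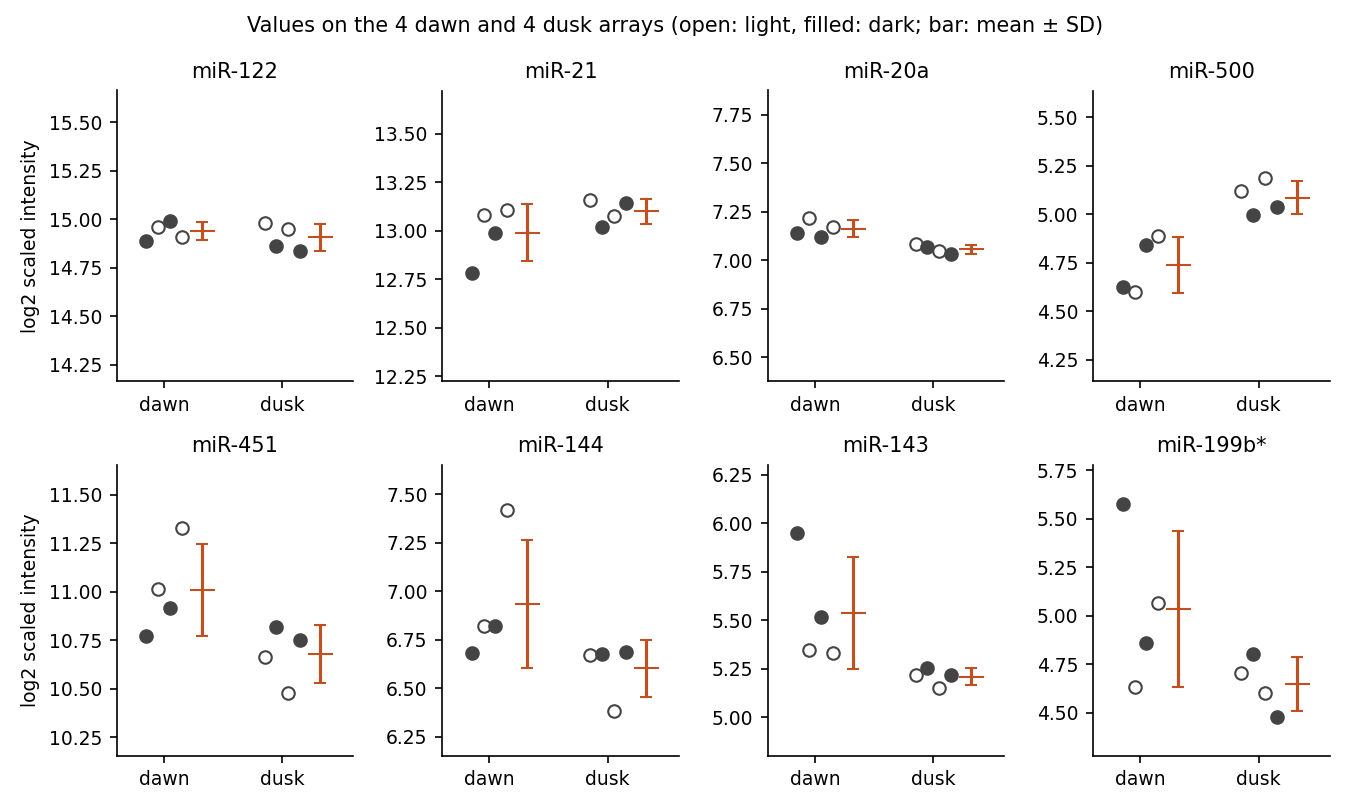
Log2 scaled intensity of 8 miRNAs on the 4 dawn and 4 dusk arrays, with open circles for pools taken in the light, filled circles for the dark, and bars for mean ± SD. Each panel spans the same height on the log2 scale. miR-122 and miR-21 overlap, miR-20a and miR-500 separate by small steps, and 1 array, ZT50 for miR-451 and miR-144 and ZT22 for miR-143 and miR-199b*, holds the highest dawn value.

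Other miRNAs were named by their p, by the size of their difference or by detection on one side. miR-468 had a fold of 1.51 (0.906 to 2.51), but 3 of its 4 dusk values lay at the floor and the fourth, 5.83 at ZT58, was its highest of all 8; without ZT58 its log2 difference was 0.94 in place of 0.59. miR-712 (0.838-fold, 0.609 to 1.15), miR-361 (0.868-fold, 0.715 to 1.05) and let-7e (0.890-fold, 0.761 to 1.04) lay lower at dawn with overlapping values. In each, 1 array carried much of the difference. It went from -0.26 to -0.09 without ZT22 (-0.11 without ZT58) for miR-712. For miR-361 it went from -0.20 to -0.09 without ZT62, and for let-7e from -0.17 to -0.10 without ZT26. miR-221 (1.09-fold, 0.975 to 1.23) and miR-92a (1.08-fold, 0.974 to 1.2) lay higher with overlapping values. miR-487b was detected on 1 dawn and 4 dusk arrays, yet 7 of its 8 values were at the floor and the 1 above it, 5.05, was the dawn array ZT50, so its detection and its level pointed opposite ways.

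Families and clusters of miRNAs were described as groups. The 9 let-7 entries, which mark differentiated cells, had a median difference of 0.01, with 5 above 0 and 4 below, from -0.17 for let-7e to 0.11 for miR-98. The 6 entries of the miR-15/16 family, which restrain the cell cycle, had a median of 0.02, from -0.01 to 0.05. The 5 entries of the miR-30 family all lay above 0 with a median of 0.05 (miR-30a lay at -0.05 without scaling). Of all entries, 93 of 133 (69.9%) lay above 0. The 5 entries of the miR-23/27/24 clusters had a median of 0.03. The 2 tested of 4 miR-181 entries stood at 0.64 and 0.53, with 1 and 2 of their 8 values at the floor and unadjusted p-values of 0.195 and 0.287 by limma. Of 13 entries that may be fragments of tRNA or rRNA rather than miRNAs, 10 were tested, with a median of 0.04. Among them miR-720, which derives from a tRNA, was at 1.06-fold (0.955 to 1.17).

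Whether the dawn to dusk difference was the same on both days was asked with an interaction term. No entry passed after adjustment (0 of 133 by limma, smallest adjusted p = 0.880). At an unadjusted p there were 6 (4.51%), and in all 6 the dawn minus dusk difference was larger on the second day, as it was without regard to p in 87 of 133 (65.4%). That direction turned with the scaling, with 71 above 0 and 61 below without scaling, 9 and 118 with all probes in the percentile, 68 and 62 with quantile normalisation and 24 and 109 after normexp. The unadjusted count was 1 without scaling and 0 with all probes in the percentile. They were miR-146a, miR-709, miR-342-3p, miR-106b, miR-15b and a herpesvirus entry. miR-146a, which restrains inflammatory signalling, was at 6.23 and 6.12 at dawn and 6.50 and 6.61 at dusk on the first day, so dawn lay lower. On the second day it was at 6.40 and 6.47 at dawn and 6.36 and 6.35 at dusk, so dawn lay slightly higher. The change between days was 0.46, with an interval from 0.15 to 0.77 (limma, adjusted p = 0.880). miR-342-3p followed the same pattern, with 5.34 and 5.16 against 5.38 and 5.57 on the first day and 5.73 and 5.65 against 5.42 and 5.22 on the second. Day and slide overlap in these data, since only ZT46 of the second day lay on the first slide. With the slide as a block, 5 entries passed the adjusted threshold, namely miR-197, miR-30c-2*, miR-487b, miR-715 and miR-878-3p. Each of them was at the floor on at least 6 of the 8 arrays and above it chiefly at ZT50. miR-715, for example, was at 5.28 at ZT50 and at 4.45 on the other 7 arrays.

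The 2 clock times within dawn lie on either side of lights-on. Comparing 2 h before with 2 h after it, 0 of 133 entries passed after adjustment (limma, smallest adjusted p = 0.507), and 11 (8.27%) did at an unadjusted p, 6 higher before lights-on (4.51%) and 5 lower (3.76%). miR-195 had the smallest p. It was at 7.05 and 6.86 before lights-on, at ZT22 and ZT46, and at 6.59 and 6.57 after it, at ZT26 and ZT50. Both days ran the same way, and the fold of before over after was 1.30 (log2 difference 0.38, interval 0.13 to 0.62). miR-497, which neighbours miR-195 on chromosome 11 in RefSeq and shares its seed AGCAGCA, was at 6.76 and 6.49 before and 6.28 and 6.27 after, a log2 difference of 0.35 (0.01 to 0.69).

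Values of the other 4 members of the miR-15/16 family lay nearer to 0 across lights-on. miR-16 was at 9.61 and 9.66 before lights-on and 9.64 and 9.69 after it, and miR-15b was at 7.88 and 8.13 before and 8.05 and 8.15 after. miR-15a and miR-322 lay above 0, by 0.03 (-0.10 to 0.15) and 0.18 (-0.09 to 0.45), so that 4 of the 6 members were above 0 with a median of 0.10. The difference between the members was not tested. Over the 12 arrays miR-195 and miR-497 had an r of 0.939 (permutation p = 2e-05, adjusted p = 4e-05) and a rho of 0.881. Their r was 0.914 without the 2 arrays farthest from the median and 0.943 on the first slide. They too were chosen as a pair after values had been seen, and 0.0539% of all pairs had an r at least as high.

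**Figure D3:**
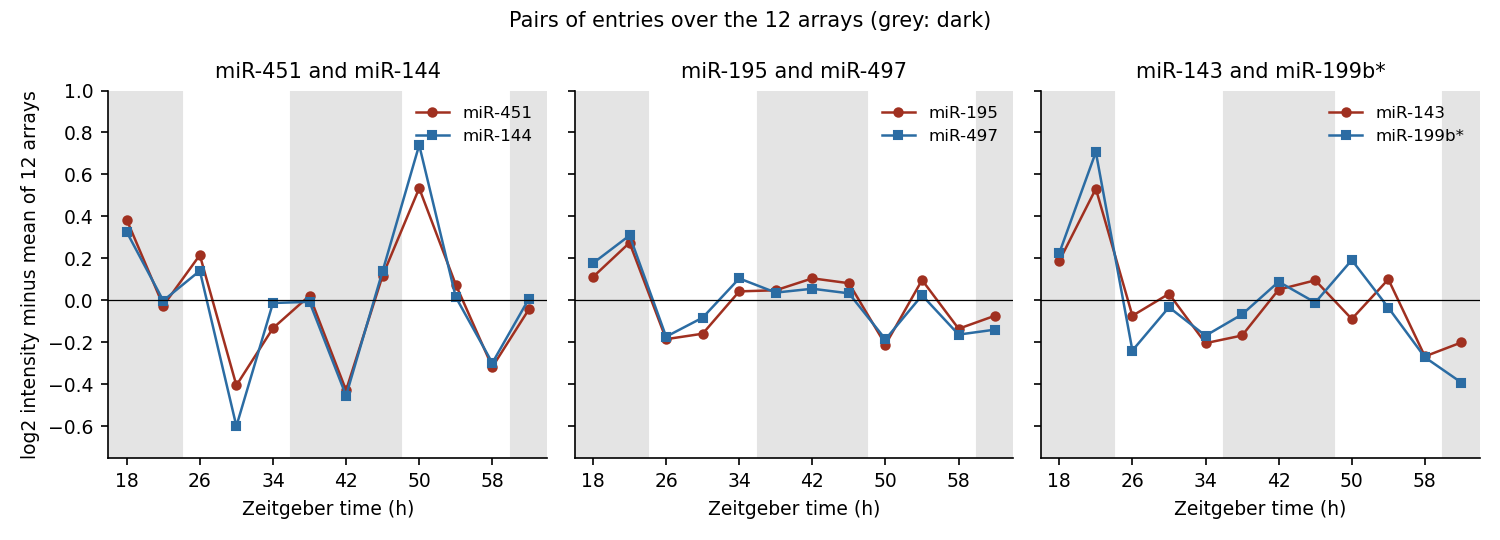
Log2 scaled intensity of 3 pairs of miRNAs, each minus its mean over the 12 arrays, against zeitgeber time in hours, with dark phases in grey. miR-451 and miR-144 (r = 0.964) peak together at ZT50, miR-195 and miR-497 (r = 0.939) at ZT22, and miR-143 and miR-199b* (r = 0.878) at ZT22.

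Other miRNAs under 0.05 before adjustment had differences of varied size. miR-23a was higher before lights-on by 0.16 (0.04 to 0.28), miR-338-3p by 0.31 (0.07 to 0.56), let-7d by 0.11 (0.01 to 0.20) and miR-143 by 0.39 (0.02 to 0.76), on the log2 scale. miR-451 was lower before lights-on by -0.33 (-0.62 to -0.04) and miR-21 by -0.21 (-0.40 to -0.01). All 5 entries of the miR-23/27/24 clusters lay above 0, with a median of 0.13, and 8 of the 9 let-7 entries did, with a median of 0.07, beside -0.03 over all entries, of which 60 of 133 (45.1%) lay above 0. The median over all entries was 0.67 with all probes in the percentile, where 123 of 127 lay above 0, and 0.03 without scaling, where 76 of 132 did. Leaving out ZT26 left 10 entries past the adjusted threshold and leaving out ZT46 left 3, in fits where one of the 4 clock times has a single array that is assumed to vary like the others. Of those 10, 6 (miR-197, miR-30c-2*, miR-487b, miR-715, miR-878-3p and a herpesvirus entry) were at the floor on at least 6 of 8 arrays.

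The 2 clock times within dusk lie on either side of lights-off. No entry passed after adjustment (0 of 133 by limma, smallest adjusted p = 0.179), and 17 (12.8%) were under 0.05 before adjustment, all higher before lights-off. Of all 133 entries, 114 (85.7%) lay above 0, with a median of 0.10. That common step rested on the scaling. Its median was -0.03 without scaling, -0.48 with all probes in the percentile, 0.00 with quantile normalisation and 1.02 after normexp, and the unadjusted count split 2 to 1 without scaling and 4 to 1 with quantile normalisation. Levels at lights-off are therefore best read relative to that median.

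With the percentile scaling, miR-1895 and miR-689 stood farthest from that median among the entries above the floor on all 8 arrays. Both may be fragments of other RNAs. miR-181d and miR-468, at 0.78 and 0.69, had 2 and 3 of their 8 values at the floor. miR-689 was at 6.65 and 6.42 before lights-off, at ZT34 and ZT58, and at 5.96 and 5.90 after it, at ZT38 and ZT62, a log2 difference of 0.61 (0.31 to 0.90), or 0.51 relative to the median. miR-1895 was at 5.60 and 5.56 before and 4.83 and 4.8 after, a difference of 0.76 (0.34 to 1.18), or 0.66 relative to the median. The 2 days agreed closely for both. When only the 109 entries above the floor were tested, both passed with an adjusted p of 0.0324 by limma. Over all tested entries and all 8 arrays, neither passed with this scaling or without scaling. Neither passed with all probes in the percentile, with quantile normalisation or after normexp. In the settings without scaling and with quantile normalisation their differences relative to the median were 0.50 and 0.48 for miR-689 and 0.65 and 0.53 for miR-1895. After normexp they were 0.28 and 0.45, and the 2 no longer stood farthest, since miR-199b* was at 0.32 and miR-451 at -1.42.

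With the percentile scaling, the let-7 family and the hepatocyte miRNAs had a median step at lights-off close to that of all entries. All 9 let-7 entries lay above 0, with a median of 0.14, and 4 were under 0.05 before adjustment. let-7g was at 10.67 and 10.63 before lights-off and 10.48 and 10.52 after it, a difference of 0.15 that is 0.05 relative to the median of all entries. All 8 hepatocyte entries lay above 0, with a median of 0.12 and 4 at an unadjusted p under 0.05. Of all 133 entries, 114 (85.7%) lay above 0 and 17 (12.8%) were under 0.05 before adjustment. The share under 0.05 was thus higher in both lists, a difference that was not tested. miR-122 was at 14.98 and 14.95 before and 14.86 and 14.84 after, which is 0.02 relative to the median. Without scaling, let-7g and miR-122 were at 0.04 and 0.01 relative to the median. After normexp, where the median of all entries was 1.02, they were at -1.07 and -0.95 relative to it.

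**Figure D4:**
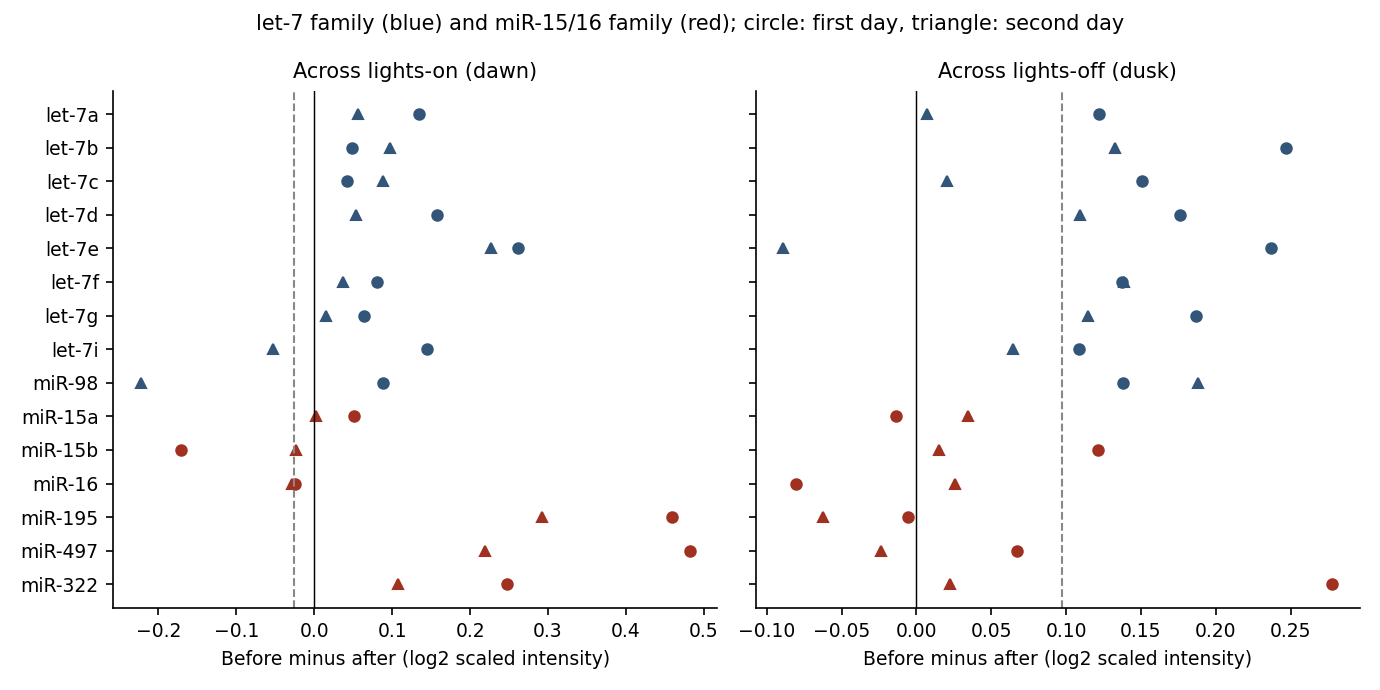
Difference between the array before and the array after lights-on (left) or lights-off (right), in log2 scaled intensity, for each of 9 let-7 entries (blue) and 6 miR-15/16 entries (red), with circles for the first day and triangles for the second; the dashed line is the median of all 133 tested entries, -0.03 on the left and 0.10 on the right. miR-195 and miR-497 lie to the right at lights-on on both days, and most let-7 entries lie near the dashed line at lights-off.

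Last, it was asked whether dawn differed from dusk in the same way among pools taken in the light and pools taken in the dark. No entry passed the interaction after adjustment (0 of 133 by limma, smallest adjusted p = 0.357). At an unadjusted p there were 14 (10.5%), 1 with a larger dawn minus dusk difference in the light (0.752%) and 13 with a smaller one (9.77%). That split rested on the scaling, since it was 2 larger and 0 smaller without scaling, 0 of either with all probes in the percentile, 3 and 5 with quantile normalisation and 1 and 0 after normexp. The 1 was miR-451, at 11.01 and 11.33 against 10.66 and 10.48 in the light and at 10.77 and 10.92 against 10.82 and 10.75 in the dark. Dawn and dusk thus stood apart among the light pools and overlapped among the dark pools (interaction 0.54, interval 0.13 to 0.95, adjusted p = 0.357). Among the 13 were let-7d (-0.25, -0.38 to -0.11), let-7g (-0.19, -0.30 to -0.08), miR-23a (-0.24, -0.41 to -0.07) and miR-689 (-0.55, -0.96 to -0.13). The median over all entries was -0.09, with 49 of 133 (36.8%) above 0. The comparisons by day, across lights-on, across lights-off and by light use the same 8 arrays and are not independent of one another.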

How the data were processed

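Liver miRNAs were measured on one-colour Agilent arrays at 12 times. The deposited values are processed intensities on a linear scale with spot flags, per the file headers. Feature Extraction is given as 10.7.3.1 in those headers but as 9.5.3.1 in the submitters' processing notes. No genome build is given in the sources used here. The deposited value table equals the scanner intensities (largest difference 0).

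Spots flagged as outliers were left out, spots of a probe averaged, and each array scaled to its 75th percentile over the 157 of 1857 probes detected on all 12 arrays, then floored at 21.9 and taken to log2. Detection of a probe, used for the scaling and the floor, required more than 50% of its spots to be well above background. Detection of an entry, used for all counts of detected entries and for the filter, was the scanner software's own flag. An entry can therefore be flagged as detected while its brightest probe lies at the floor. The brightest probe stood for an entry. Entries detected on at least 6 of 12 arrays were kept (139), and 6 at the floor on all 8 dawn and dusk arrays were then left out, leaving 133. Of the tested values, 8.93% were at the floor.

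Groups came from the sample titles. Tests used limma 3.58.1 (R 4.3.3) with an intensity trend and Benjamini-Hochberg adjustment over all 133 entries at 0.05, and two-sided exact permutation tests (SciPy 1.17.1). The fit was tested on simulated data. Alternatives covered scaling, background correction, floor, filters, slide and leaving out each array. normexp (offset 50) used the median signal column.

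The named entries are those with the 10 smallest p-values, the 5 largest differences each way among entries above the floor on all 8 arrays, and non-overlapping groups. Added to these were a fixed set, the 3 smallest p-values in each further comparison, and entries detected on all 4 arrays of one side and at most 1 of the other. The fixed set holds well-known liver miRNAs, miRNAs of blood, endothelial and mesenchymal cells, and miR-720. Members, lists and this rule were chosen with earlier results of these data known. Other entries are named from the lists or after their values were seen. Sequences and gene neighbours came from RefSeq tables by mature name.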

Additional observations from a re-analysis of the deposited data

Results flagged for a closer look

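Of 78 groups of 4 arrays examined (41 named miRNAs), 2 held an array far from the other 3, where chance gives about 1 in 20 groups, or 3.9. miR-144 was at 6.38 at ZT58, below the other dusk arrays, and miR-709 was at 9.93 at the same ZT58, below the other dusk arrays, which lay at 9.98 to 9.99. Data outside the comparison of mouse miRNAs also held signal, since 4 of 39 entries for herpesvirus miRNAs were detected often enough to be tested. By limma, 0 of these 4 differed between dawn and dusk, and their unadjusted p-values ran from 0.190 to 0.818.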

How the results depend on the processing

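The labels do not pair a dawn pool with a dusk pool, and no paired test was run. With the day, light or dark, or the slide as a term instead, dawn against dusk had 0 calls by limma (smallest adjusted p 0.590, 0.926 and 0.980). Counts past the adjusted threshold are 0 in all 5 comparisons. Dawn against dusk kept 0 on leaving out each array in turn (0 to 0), and gave 1 after normexp (miR-451) and 6 within slide 2, where ZT50 stood alone and 5 of the 6 (not miR-142-5p) were at the floor on at least 6 of 8 arrays. The comparison by day gave 1 after normexp, 5 with the slide as a block and 0 to 5 on leaving out arrays (5 without ZT46). That across lights-on gave 2 with quantile normalisation (miR-29a and miR-451) and 0 to 10 on leaving out arrays. That across lights-off gave 1 with quantile normalisation, 1 after normexp (miR-451 in both), 2 for entries above the floor and 0 to 2 on leaving out arrays (2 without ZT26, miR-1895 and miR-1897-5p). That by light gave 2 with quantile normalisation, 1 after normexp and 0 to 5 on leaving out arrays (5 without ZT26). Except where a floor value or a lone array is named, the cause was not tested. In the fits after normexp the variance of an entry came from the intensity trend alone, not from its own spread. The number of mouse entries detected differed by -2.67 to 5.0 on leaving out arrays and by -47.5 when 1 spot above background sufficed, and the scaling factor by 0.00712 to 0.0807. The median of all entries was itself -0.03 without scaling, -0.02 with all probes in the percentile and -0.42 after normexp. A sign below 0 in these settings therefore need not set an entry apart from the others. Of the named miRNAs, 14 of 41 reversed without scaling, 14 of 40 with all probes in the percentile and 22 of 41 after normexp. Their values of dawn minus dusk on the log2 scale follow. Without scaling they were miR-122 -0.0354, miR-192 -0.0362, miR-194 -0.0201, miR-148a -0.0163, let-7a -0.0597, miR-22 -0.0208, miR-378 -0.0147, miR-30a -0.0528, miR-103 -0.0516, miR-195 -0.0465, miR-23a -0.0602, miR-689 -0.019, let-7d -0.0256 and let-7f -0.0455. With all probes in the percentile they were miR-122 -0.0259, miR-192 -0.0267, miR-194 -0.0106, miR-148a -0.00679, let-7a -0.0502, miR-22 -0.0114, miR-378 -0.00525, miR-30a -0.0433, miR-103 -0.0422, miR-195 -0.037, miR-23a -0.0507, miR-689 -0.00955, let-7d -0.0161 and let-7f -0.036. After normexp they were miR-143 -0.421, miR-20a -0.279, miR-144 -0.225, miR-199b* -0.446, miR-468 -0.417, miR-221 -0.479, miR-92a -0.142, miR-185 -0.476, miR-378 -0.327, miR-29a 0.0292, miR-103 -0.265, miR-16 0.0353, miR-27b -0.104, miR-142-3p -0.126, miR-126-3p 0.0886, miR-342-3p -0.533, miR-195 -0.382, miR-23a -0.0459, miR-338-3p -0.556, miR-689 -0.395, let-7g 0.0897 and miR-487b -0.591. With the floor halved miR-487b was at -0.235, and with the slide as a block the values were miR-126-3p 0.00881, miR-195 -0.0307 and miR-1895 0.000869. On leaving out arrays the ranges that crossed 0 were miR-192 -0.00497 to 0.0706, let-7a -0.0134 to 0.0337, miR-378 -0.00803 to 0.117, miR-30a -0.0127 to 0.0407, miR-103 -0.0155 to 0.0386, miR-16 -0.0198 to 0.0146, miR-126-3p -0.032 to 0.0177, miR-342-3p -0.0116 to 0.177, miR-195 -0.0754 to 0.0864, miR-23a -0.0377 to 0.0419, miR-689 -0.0656 to 0.186, let-7g -0.0329 to 0.0294, miR-1895 -0.213 to 0.0737 and let-7f -0.0113 to 0.0518. Summing the signal of an entry's probes and the column used for normexp were chosen after seeing the data. Signal close to background limits the dim entries, since 24 of 133 touched the floor.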
